A study of Homo sapiens with 20 samples.

Results

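FUBP1, FUBP3 and KHSRP are the 3 members of the far upstream element-binding protein (FUBP) family, and they were followed here through every skipped exon (SE) event that carried one of the 3 gene symbols in the junction tables of the study. An SE event is an exon with a fixed pair of neighbours that is either joined to both (inclusion) or left out (skipping). The rule took 23 events of 59847, which involved 12 different exons, and 3 of the 9538 genes listed. FUBP3 had 15 of the 23 events, FUBP1 had 4 and KHSRP had 4. All 3 genes also had a row in the table of FUBP1 RNA immunoprecipitation (RIP).

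The proteins of this family bind single-stranded DNA and RNA through a row of KH domains. FUBP1 is known as an activator of MYC transcription through the far upstream element and as a splicing factor that acts near the 3′ splice site, FUBP3 is its closest relative, and KHSRP (also called KSRP or FUBP2) is known for the decay of mRNAs with AU-rich elements and for the maturation of some microRNA precursors. Splicing factors often regulate the splicing of their own transcripts and of their paralogs, which is the question that the events of these genes bear on.

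All samples were HepG2 cells, a human liver cancer line that is used as a model of hepatocytes. The series held 20 samples in 8 groups. RNA-seq was made 48 h after an siRNA against FUBP1 (siFUBP1) or the control siRNA siCtrl2, and 72 h after an antisense oligonucleotide (ASO) against U3, a small nucleolar RNA that acts in the processing of ribosomal RNA, or against GFP as the control, with 3 libraries in each of these 4 groups. FUBP1 RIP and its input were sequenced 48 h after an siRNA against FBL, which encodes the 2′-O-methyltransferase fibrillarin, or after the control siRNA siCtrl, with 2 libraries in each of those 4 groups. Junction reads came from the inputs in this last comparison. Each depletion had its own control libraries.

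The libraries held 2693397 to 4474350 junction reads in the siFUBP1 table, 11249641 to 13321799 in the U3 table and 910779 to 1142189 in the input table. A junction read level is the number of junction reads at the listed events of a gene per 1e+06 junction reads of the library in that table (RPM). It is not scaled to gene length or to the number of listed events, so levels are compared between libraries and not between genes. FBL had no event in the tables, but its mean normalized count in the RIP table was 1034 under siCtrl and 164 under siFBL, a ratio below that of every other gene with a mean of at least 50 in both conditions (11581 genes in all). The U3 RNA was not measured in these tables. Of 11 hepatocyte markers, 10 had listed events. Their summed level was between 105685 and 107548 in siCtrl2 and between 107231 and 115245 in siFUBP1, between 107111 and 109628 in GFP ASO and between 78596 and 80001 in U3 ASO, and between 176336 and 179131 in siCtrl input and between 192290 and 193719 in siFBL input. None of the 4 blood markers or 4 fibroblast markers had a listed event, and of the 3 endothelial markers 1 had events, in the U3 table, at no more than 0.834 RPM. In the RIP table under siCtrl, ALB had a mean normalized count of 337272, and of the markers of other cell types PDGFRB, a marker of fibroblasts, had 1003 and the others had 92.8 or less.

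The first KH domain of each family member is coded in part by an exon of 72 bases that is followed in all 3 genes by an exon of 58 bases. These paralogous exons are shown first because 2 of them were themselves listed as SE events (FUBP1 exon 6 and KHSRP exon 6) and the third was the upstream neighbour of listed FUBP3 events. They lie on hg38 at chr1:77966884-77966955 on the minus strand (FUBP1), chr9:130612956-130613027 on the plus strand (FUBP3) and chr19:6420073-6420144 on the minus strand (KHSRP), and exon numbers here are those of the canonical GENCODE transcripts. Capitals mark bases that are identical in all 3 exons.
FUBP1 exon 6: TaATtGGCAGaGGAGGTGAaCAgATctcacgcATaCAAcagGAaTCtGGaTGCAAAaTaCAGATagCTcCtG
FUBP3 exon 5: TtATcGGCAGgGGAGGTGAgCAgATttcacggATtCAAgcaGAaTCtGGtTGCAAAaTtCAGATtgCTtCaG
KHSRP exon 6: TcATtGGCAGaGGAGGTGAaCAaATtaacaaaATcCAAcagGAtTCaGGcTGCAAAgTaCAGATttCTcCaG
FUBP1 and FUBP3 shared 57 of the 72 bases (79.2%), FUBP1 and KHSRP shared 55 (76.4%), FUBP3 and KHSRP shared 50 (69.4%), and 47 bases (65.3%) were the same in all 3 genes.

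The other exons on which the results turn are shown with the 50 intron bases before them and 20 intron bases after them. FUBP3 exon 17, the only family exon listed in all 3 tables, lies at chr9:130634667-130634738 on the plus strand. It is wholly coding in the canonical transcript, and its 72 bases keep the reading frame. The FUBP1 exon of 63 bases lies at chr1:77969022-77969084 on the minus strand between canonical exons 2 and 3. It is not part of the canonical transcript, was annotated in only 1 transcript, in which it is coding, and also keeps the frame. The printed stretches span chr9:130634617-130634758 and chr1:77969002-77969134 on hg38, and capitals mark the exon.
FUBP3 72-base exon with flanks: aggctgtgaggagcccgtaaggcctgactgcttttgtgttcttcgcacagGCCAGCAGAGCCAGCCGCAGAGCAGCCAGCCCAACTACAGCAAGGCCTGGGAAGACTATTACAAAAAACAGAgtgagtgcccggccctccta
FUBP1 63-base exon with flanks: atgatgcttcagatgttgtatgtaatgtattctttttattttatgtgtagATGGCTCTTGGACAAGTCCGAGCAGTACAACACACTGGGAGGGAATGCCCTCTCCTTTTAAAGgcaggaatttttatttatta
The FUBP1 exon is followed by GC in place of the usual GT, as were 402 of the 31955 different exons in the tables (1.26%), and it was the only one of the 12 family exons with this donor. T made up 52% of the 50 intron bases before it, more than before 89.8% of all exons, whereas T made up 28% before FUBP3 exon 17, more than before 21.4% of all exons (median of all exons 38%). The run TTTT, read on the strand of the gene, occurred in this window before 8 of the 12 family exons, and before 56.8% of all exons.

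FUBP1 itself was the member that changed most under siFUBP1, as the target of the siRNA. Its junction reads, all from the event at the 63-base exon, came to 45.2, 56.1 and 50.3 RPM in siCtrl2 and to 8.42, 10.1 and 4.08 RPM in siFUBP1. Every siFUBP1 library was below every control library, and the mean fell to 14.9% of the control. The log2 change was −2.81 (SE 0.373, adjusted p = 0.000113, limma over 6432 genes, Benjamini-Hochberg), which ranked 14 from the most negative of those genes. Here and below a value with an adjusted p under 0.1 was taken as changed. In bulk RNA, less RNA in each cell and fewer cells with the RNA cannot be told apart.

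No change of the FUBP3 level was called when FUBP1 was depleted. FUBP3 had 302, 323 and 300.3 RPM in siCtrl2 and 365, 302 and 310.02 in siFUBP1, so that the groups overlapped. Its log2 change was 0.07 (95% interval −0.16 to 0.31, adjusted p = 0.769, limma). KHSRP had no listed event in this table and was not analysed there. A level was thus called for 1 of the 2 members, FUBP1, against a background of 11.7% of all genes called in either direction and 6.16% called lower, and 1 of 2 had groups that did not overlap, against 25.8% of all genes. Tested event by event, 1 of 8 family events was called by its reads, that of FUBP1, against 6.00% of all events. The exact permutation test over 3 against 3 libraries cannot go below p = 0.1, the value found for FUBP1 (two-sided).

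**Figure D1:**
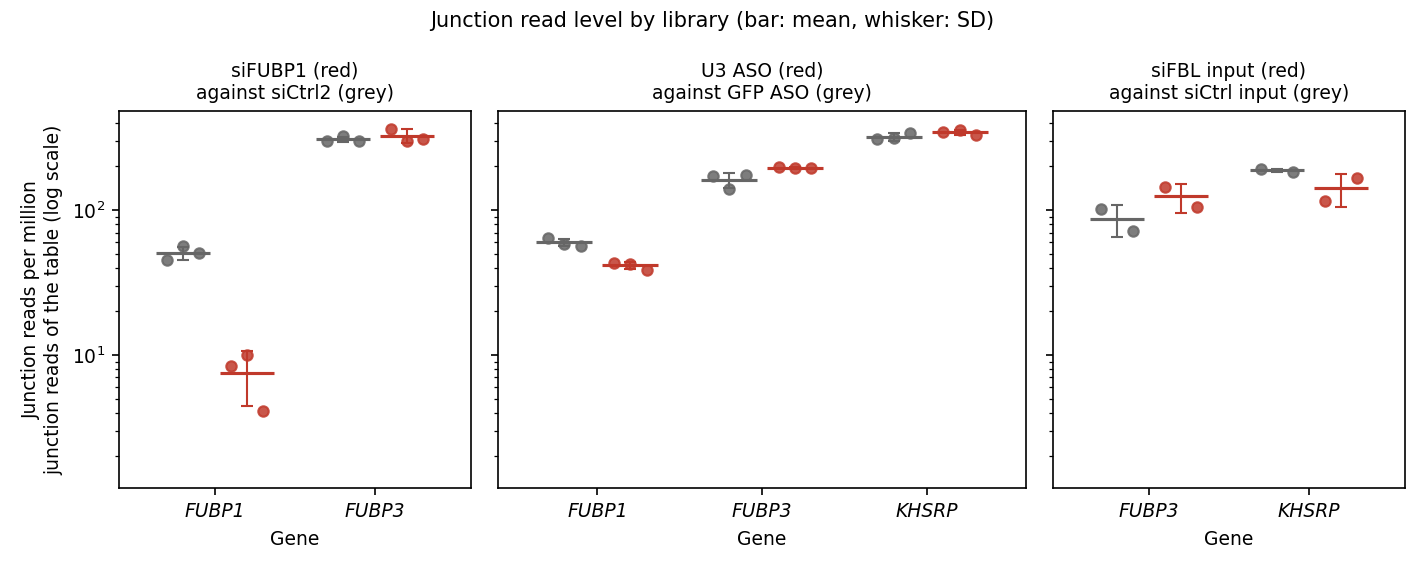
Junction reads per 1e+06 junction reads of the library (log axis) for each family gene, with 1 point per library, a bar for the mean and a whisker for the SD. Control libraries are grey and depleted libraries red. FUBP1 fell from between 45.2 and 56.1 to between 4.08 and 10.1 under siFUBP1, and from between 56.9 and 64.0 to between 38.7 and 43.4 under U3 ASO.

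The inclusion level is the share of inclusion reads after scaling for the length of the 2 forms, on a scale from 0 to 1. No inclusion change of a family event passed the test under FUBP1 depletion. Of the 9 events, 8 had a mean of at least 10 reads per library and were tested, and none of them was called (quasi-binomial test, adjusted p from 0.812 to 0.882), against 0.197% of the 16213 events tested (32 events, with 744 at an unadjusted p under 0.05). The limma tests on the log2 odds of inclusion called none of the family events either.

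FUBP3 exon 17 had the largest inclusion difference among the tested family events of this table. Its inclusion level was 0.622, 0.715 and 0.688 in siCtrl2 and 0.795, 0.815 and 0.787 in siFUBP1. The mean was 0.675 ± 0.0478 in siCtrl2 and 0.799 ± 0.0147 in siFUBP1 (SD, n = 3), a difference of 0.124 that did not pass the correction over all events (quasi-binomial p = 0.0772, adjusted p = 0.812; exact permutation p = 0.1, two-sided, the smallest that 3 against 3 libraries allow). All 3 siFUBP1 libraries were above all 3 controls. This was 1 of 8 tested family events without overlap, against 5.32% of all events.

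The reads behind these levels were 122, 238 and 111 inclusion reads beside 50, 64 and 34 skipping reads in siCtrl2, and 241, 177 and 159 beside 42, 27 and 29 in siFUBP1. The 95% Wilson interval of siCtrl2 library 2, the highest control, ran from 0.656 to 0.768 and overlapped that of siFUBP1 library 3, the lowest depleted library, from 0.714 to 0.846. These intervals cover counting error only. The test used a variance of 5.94 times that of binomial counts for this event. That value was moderated over all events and is not the spread of this event's own libraries. When 1 library was left out, the difference stayed between 0.0978 and 0.144, with adjusted p of at least 0.873.

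The same exon was also listed in the other comparisons. Under the ASOs its inclusion level was 0.737, 0.746 and 0.562 in the GFP libraries and 0.725, 0.661 and 0.582 in the U3 libraries. These groups overlapped, with a difference of −0.0256 (adjusted p = 0.898) that turned to 0.0115 without U3 ASO library 3, to 0.00654 without GFP ASO library 2 and to 0.002 without GFP ASO library 1. GFP ASO library 3, with 345 inclusion and 181 skipping reads, stood below both other control libraries, and without it the difference was −0.0852 (adjusted p = 0.914).

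In the inputs, FUBP3 exon 17 had levels of 0.652 and 1 in siCtrl and 0.798 and 0.749 in siFBL. The control libraries lay on both sides of the depleted ones. The difference of −0.0525 (adjusted p = 0.97) turned to 0.122 without siCtrl input library 2, whose 65 reads were all inclusion reads, which allows a skipping share of up to 4.62%. Whether the response of this exon differed between the 3 depletions was not tested, because the tables were counted and normalized separately.

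**Figure D2:**
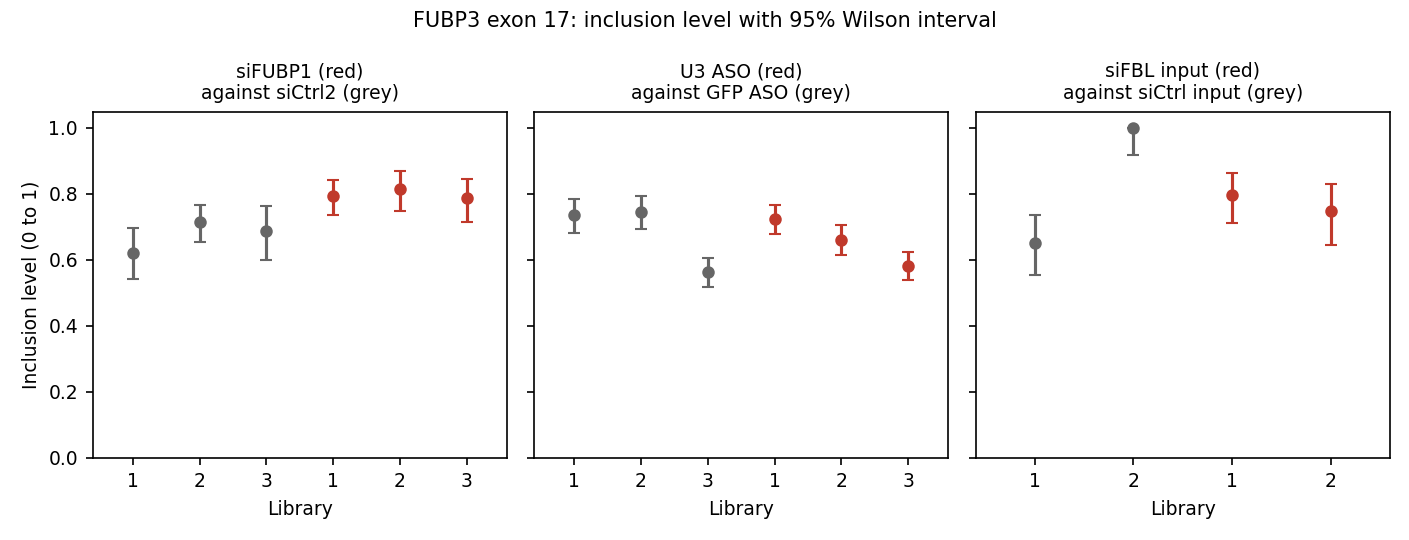
Inclusion level of FUBP3 exon 17 (0 to 1) in each library of the 3 comparisons, with 95% Wilson intervals for counting error. Under siFUBP1 the 3 depleted libraries (0.787 to 0.815) lie above the 3 controls (0.622 to 0.715), whereas the groups overlap under U3 ASO and in the inputs.

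The other FUBP3 exons were listed under siFUBP1 and U3 ASO but not in the inputs, and their tested events were included almost fully. Exons 2, 3, 6, 7 and 15 have 106, 34, 58, 163 and 81 bases, of which only the last keeps the frame when skipped. In the siFUBP1 table the group means of their tested events lay between 0.974 and 1, and in the U3 table between 0.982 and 1. The few skipping reads were concentrated in a few libraries. All 7 skipping reads of exon 15 in the siFUBP1 table were in siCtrl2 library 3, beside 126 inclusion reads, and 12 of the 15 skipping reads of exon 2 in the U3 table were in GFP ASO library 1, beside 453 inclusion reads.

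Exons 6 and 7 of FUBP3 were listed with several pairs of neighbours, so their events share junction reads. The junction that joins exon 5 to exon 8, and leaves out both exons, had 0, 4 and 2 reads in siCtrl2 and no read in any siFUBP1 library. It served as the skipping form for exon 7 between exons 5 and 8, where 137, 196 and 138 inclusion reads stood beside it in siCtrl2 and 126, 142 and 115 in siFUBP1. The inclusion levels of that event were 1, 0.961 and 0.972 in siCtrl2 and 1 in each siFUBP1 library, and the groups overlapped through siCtrl2 library 1 (adjusted p = 0.812). The same junction served for exon 6 between exons 5 and 8, which had a mean of only 6.67 reads per library and was not tested (mean inclusion level 0.694 in siCtrl2 and 1 in siFUBP1). The junction from exon 5 to exon 7, which leaves out exon 6 alone, had 0, 0 and 1 read in siCtrl2 and 0, 2 and 0 reads in siFUBP1.

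**Figure D3:**
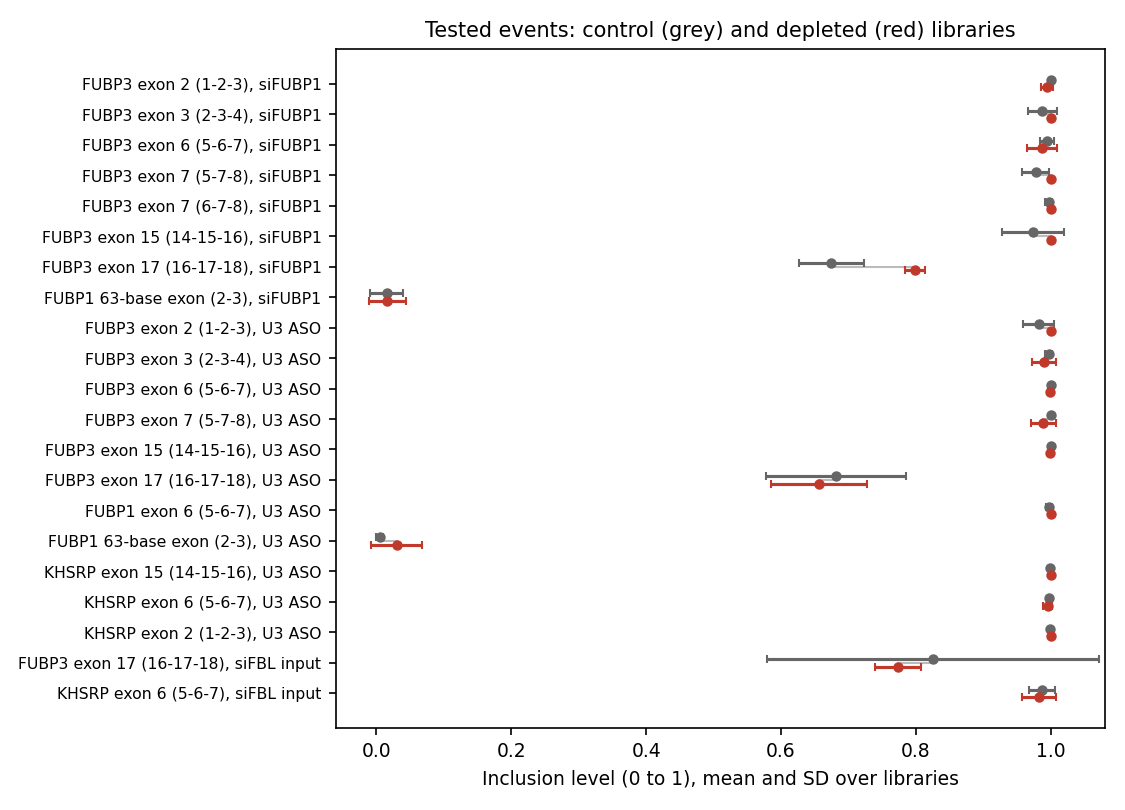
Mean inclusion level and SD over libraries for the 21 tested family events, with control libraries in grey and depleted libraries in red. Numbers in parentheses are the exons that form the event, or the neighbours of the FUBP1 63-base exon. FUBP3 exon 17 lies between 0.656 and 0.826, the FUBP1 63-base exon lies below 0.03, and the other events lie at 0.974 or above.

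The FUBP1 63-base exon was rarely included. Its inclusion reads in siCtrl2 were 8 of 131, 1 of 251 and 0 of 153 junction reads, and in siFUBP1 they were 2 of 30, 0 of 32 and 0 of 11. The inclusion levels were 0.0437, 0.0028 and 0 in siCtrl2 and 0.0478, 0 and 0 in siFUBP1, so that 1 library in each group carried nearly all the reads of the inclusion form. The difference was 0.000428 (adjusted p = 0.882) and changed sign when siCtrl2 library 2, siCtrl2 library 3 or siFUBP1 library 1 was left out. At this depth little could be detected, since 0 of 11 reads allows an inclusion share of up to 27.3%, and 0 of 32 one of up to 9.38%.

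Under the ASOs the same exon had 4 of 297, 2 of 317 and 0 of 318 reads in the GFP libraries and 3 of 230, 2 of 208 and 16 of 158 in the U3 libraries. U3 ASO library 3 stood apart with an inclusion level of 0.0734 (95% Wilson interval 0.0453 to 0.117), while the other 5 libraries were at 0.0095 or below. The difference between the groups was 0.0251 (adjusted p = 0.845) and was 0.00334 without that library.

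**Figure D4:**
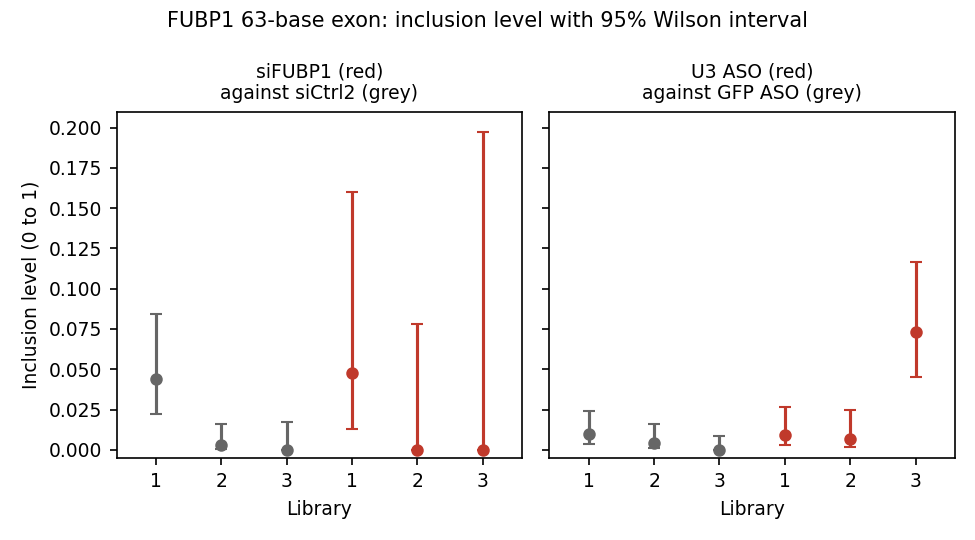
Inclusion level of the FUBP1 63-base exon (0 to 1) in each library, with 95% Wilson intervals for counting error. The intervals are wide in siFUBP1, where 11 to 32 reads were counted, and U3 ASO library 3 lies at 0.0734, above the other 5 libraries of its comparison.

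FUBP1 junction reads also fell after U3 depletion. Over its 3 events FUBP1 had 64.0, 58.7 and 56.9 RPM in GFP ASO and 43.4, 42.6 and 38.7 in U3 ASO. Every U3 ASO library was below every GFP ASO library, and the mean was 69.4% of the control. The log2 change was −0.53 (SE 0.133, adjusted p = 0.00451, limma over 8548 genes), and 8.12% of genes had a more negative change. When 1 library was left out, FUBP1 stayed called with changes between −0.56 and −0.48.

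The reference for these levels shifted. The median gene of the U3 table had a log2 change of 0.28, and 875 genes were called lower against 3124 higher. After each library was centred on its median gene, 1802 genes were called lower and 1415 higher. The hepatocyte markers moved with this comparison, at 107111 to 109628 RPM in GFP ASO against 78596 to 80001 in U3 ASO, and their part in the shift was not tested. Relative to the median gene the FUBP1 change was −0.81 (adjusted p = 0.00014), and it stayed called without any single library (−0.84 to −0.76).

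FUBP3 moved with the median gene under U3 ASO. It had 172, 139 and 174 RPM in GFP ASO and 197, 196 and 194 in U3 ASO, without overlap between the groups. Its log2 change was 0.28 (SE 0.0938, adjusted p = 0.0242), but 0.00 after centring (adjusted p = 0.994). Without GFP ASO library 2, the lowest control, the uncentred change was 0.18 and was no longer called (adjusted p = 0.122).

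KHSRP had 307, 312 and 341 RPM in GFP ASO and 343, 356 and 332 in U3 ASO, which overlapped. Its log2 change was 0.11 (SE 0.0694, adjusted p = 0.243), and after centring it was −0.18 and called lower (adjusted p = 0.0649). The call after centring was lost without GFP ASO library 3 (−0.13, adjusted p = 0.226), U3 ASO library 1 (−0.17, adjusted p = 0.144) or U3 ASO library 3 (−0.15, adjusted p = 0.205). FUBP1 was thus called lower on both scales, while FUBP3 was called on the uncentred scale alone and KHSRP on the centred scale alone.

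In counts, 2 of the 3 members were called in either direction in this comparison, against 46.8% of all genes, and 1 was called lower, against 10.2%. After centring, 2 of 3 were called lower, against 21.1%. Groups did not overlap for 2 of 3 members, against 49.5% of all genes. With shares of this size over all genes, these counts are no result about the family.

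Of the 6 FUBP3 events under U3 ASO, those at exons 15 and 17 were called by their reads. The reads at exon 15 were 23.1, 22.6 and 24.9 RPM in GFP ASO and 43.0, 40.3 and 39.1 in U3 ASO, a mean of 173% of the control with no overlap. The log2 change of this event was 0.79 (95% interval 0.49 to 1.10, adjusted p = 0.000261, limma over 30110 events) and 0.51 after centring on the median event (adjusted p = 0.0158). It stayed called without any single library (0.75 to 0.83). Nearly all of these were inclusion reads, with a mean inclusion level of 1 under the GFP ASO and of 0.999 under the U3 ASO.

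The 4 events at FUBP3 exons 2, 3, 6 and 7 had log2 changes between −0.06 and 0.15 in the U3 table and were not called, and after centring their changes lay between −0.34 and −0.13, also uncalled. Exon 17, near the 3′ end like exon 15, had 30.2, 29.7 and 39.9 RPM in GFP ASO and 44.4, 41.0 and 45.3 in U3 ASO. Its log2 change of 0.40 (adjusted p = 0.046) was 0.12 after centring (adjusted p = 0.639), and the uncentred call was also lost without GFP ASO library 1, GFP ASO library 2, U3 ASO library 1 or U3 ASO library 3 (0.33 to 0.39, adjusted p from 0.118 to 0.145). Exon 15 made up 13.4% to 16.3% of the FUBP3 junction reads in GFP ASO and 20.2% to 21.9% in U3 ASO. The shares of exon 3 (14.8% to 17.2% and 13.7% to 14.2%) and exon 7 (10.8% to 13.2% and 7.9% to 10.3%) were lower in every U3 ASO library than in every GFP ASO library, and those of exons 2, 6 and 17 overlapped. Each of the 3 shares without overlap had an exact permutation p = 0.1 (two-sided), the smallest possible, and the 6 shares of a library sum to 100%. Under siFUBP1 no change of its reads was called, with 41.4, 37.8 and 43.7 RPM in siCtrl2 and 35.9, 46.2 and 43.8 in siFUBP1 (log2 change 0.03, adjusted p = 0.969). Whether the changes in reads differed between the events of the gene, or between the depletions, was not tested further.

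**Figure D5:**
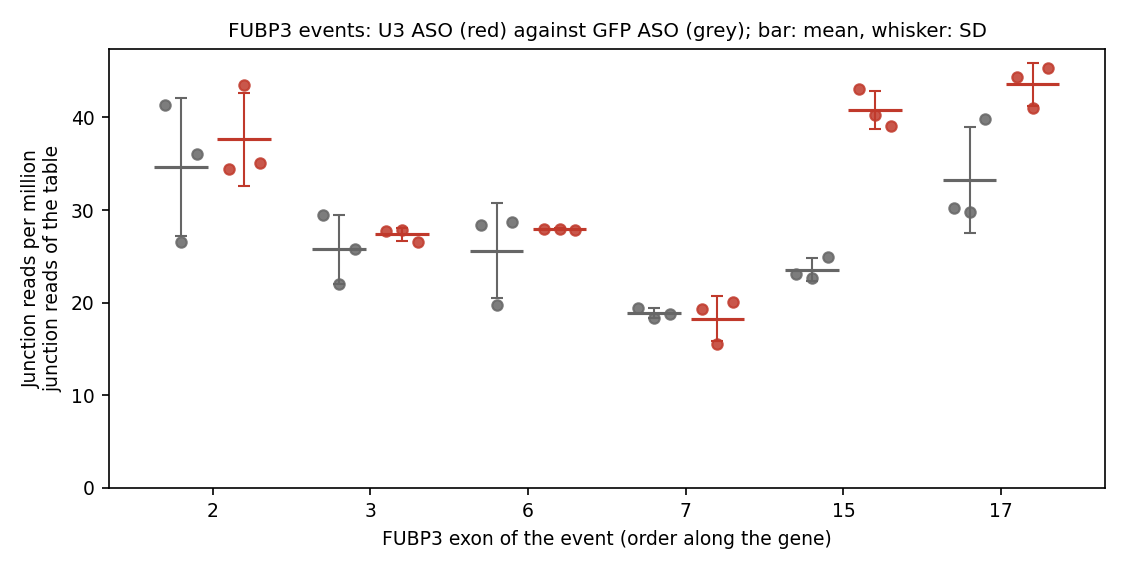
Junction reads per 1e+06 junction reads of the library at the 6 FUBP3 events of the U3 table, ordered along the gene, with 1 point per library, a bar for the mean and a whisker for the SD. Reads at exon 15 were 22.6 to 24.9 in GFP ASO (grey) and 39.1 to 43.0 in U3 ASO (red), whereas the groups overlap at exons 2, 3, 6 and 7.

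Both larger FUBP1 events fell under U3 ASO. At the 72-base exon 6, one of the paralogous exons shown above, FUBP1 had 37.1, 32.7 and 32.5 RPM in GFP ASO and 22.8, 24.7 and 26.6 RPM in U3 ASO. The log2 change was −0.47 (adjusted p = 0.0286), and it was −0.41 without U3 ASO library 1 (adjusted p = 0.111). At the 63-base exon the values were 26.4, 25.9 and 24.1 RPM against 20.4, 17.8 and 11.9. This change was −0.65 (adjusted p = 0.0186), and −0.42 without U3 ASO library 3 (adjusted p = 0.158). Centred on the median event, both remained lower, at −0.75 (adjusted p = 0.000831) and −0.93 (adjusted p = 0.00124). The 4 family events called by their reads, 2 of FUBP1 and 2 of FUBP3, were 4 of 11 tested, against 32.5% of all events.

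No inclusion change of the family was called under U3 ASO. Of the 12 events 11 were tested, with adjusted p from 0.845 to 0.916 (quasi-binomial test), against 0.226% of the 30110 events tested (68 events). None of the 11 had groups without overlap, against 6.27% of all events. The exon 6 events of FUBP1 and KHSRP were close to full inclusion. FUBP1 exon 6 had 2 skipping reads beside 415 inclusion reads in GFP ASO library 1 and none in the other 5 libraries. KHSRP exon 6 had 2, 3 and 2 skipping reads in GFP ASO and 9, 0 and 1 in U3 ASO, beside 912 to 1259 inclusion reads. Its inclusion levels were between 0.996 and 0.998 in GFP ASO and between 0.987 and 1 in U3 ASO.

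The other KHSRP events, at exon 2 (97 bases) and exon 15 (110 bases), shift the frame when skipped. They were the deepest events of the family, with means of 1468 and 1450 reads per library, and they had 3 and 2 skipping reads over all 6 libraries. The FUBP1 exon of 100 bases near the 3′ end, at chr1:77947453-77947552 on the minus strand, was annotated in 2 transcripts, one a target of nonsense-mediated decay and the other with no defined coding sequence. It had a mean of only 3 reads per library and was not tested. Its inclusion reads were 6, 1 and 0 in GFP ASO and 3, 1 and 3 in U3 ASO, and its 4 skipping reads were all in GFP ASO library 3.

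After FBL depletion neither listed member was called. FUBP3 had 102 and 71.4 RPM in siCtrl input and 144 and 104 in siFBL input, and KHSRP had 192 and 184 in siCtrl input and 116 and 167 in siFBL input. FUBP3 was higher and KHSRP lower in both depleted libraries. The log2 change was 0.52 for FUBP3 (95% interval −0.32 to 1.35, adjusted p = 0.625) and −0.43 for KHSRP (95% interval −1.12 to 0.25, adjusted p = 0.619, limma over 3217 genes). The median gene of this table had a change of −0.19, and relative to it the changes were 0.68 for FUBP3 (adjusted p = 0.535) and −0.27 for KHSRP (adjusted p = 0.81).

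Thus 0 of 2 members were called, against 3.64% of genes, and 0 of 2 by the reads of their events, against 3.49%. Groups did not overlap for 2 of 2, against 43.7% of genes, and the exact permutation test over 2 against 2 libraries cannot go below p = 0.333. In inclusion, the events at FUBP3 exon 17 and KHSRP exon 6 were tested and not called, against 0 of 5218 events called in all (0%, quasi-binomial test, with 118 at an unadjusted p under 0.05, and 6 called when limma was run on log2 odds with a trended variance). Neither event had groups without overlap, against 15.8% of all events. KHSRP exon 6 had inclusion levels of 0.973 and 1 in siCtrl input and of 1 and 0.964 in siFBL input. FUBP1 had no listed event in this table.

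In the pooled column of the RIP table, FUBP1 had a lower mean under siFBL than under siCtrl. The mean normalized count, which the authors averaged over libraries that include RIP and input, was 14257 under siCtrl and 8689 under siFBL for FUBP1, a ratio of 0.609. The ratio was 1.03 for FUBP3 (10557 and 10872) and 0.859 for KHSRP (15734 and 13513). The median ratio of the 11581 genes with a mean of at least 50 in both conditions was 0.865, and 8.41% of them had a lower ratio than FUBP1, 48.5% a lower one than KHSRP and 79.3% a lower one than FUBP3. These means have no SD and were normalized separately in the 2 conditions. Which libraries entered them was not given in the sources used here. The means mix bound and input RNA, so they measure neither binding nor level alone. The binding of FUBP1 to the 3 transcripts was not analysed here.

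Among other genes of the early spliceosome and 3′ splice site recognition, where FUBP1 acts, 14 of 20 were tested by level under siFUBP1 and 1 was called. Over all genes 11.7% were called in either direction and 6.16% lower, so this count is no result about the list. The gene called was U2SURP, a U2 snRNP-associated factor, which fell from 261 ± 28.0 to 178 ± 26.8 RPM (SD, n = 3; log2 change −0.56, adjusted p = 0.0169). The list had a median change of −0.05, as did all genes. Of 20 genes that act with KHSRP in mRNA decay and microRNA maturation, 14 were tested and 4 were called lower, against 6.16% of all genes. YWHAZ, a 14-3-3 protein, had a log2 change of −0.78 (adjusted p = 0.00257), EXOSC9, an exosome subunit, −0.66 (adjusted p = 0.0336), the deadenylase PARN −2.04 (adjusted p = 0.0616) and DROSHA, the nuclear microRNA processing enzyme, −0.52 (adjusted p = 0.0622). The PARN level varied widely between libraries, at 31.6 ± 12.6 RPM in siCtrl2 and 10.9 ± 8.99 in siFUBP1 (SD, n = 3; SE of the log2 change 0.645). Relative to the median gene, the call of DROSHA was lost (−0.45, adjusted p = 0.108). The median of this list was −0.33.

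Of 29 other KH domain genes 17 were tested under siFUBP1, with PCBP2 (−0.47, adjusted p = 0.00112) and ANKRD17 (−0.38, adjusted p = 0.0667) called lower and FXR1 (0.51, adjusted p = 0.0157) and PCBP4 (0.76, adjusted p = 0.0178) called higher, and a list median of −0.15. That is 2 of 17 in each direction, against 6.16% of all genes lower and 5.50% higher. The call of ANKRD17 was lost relative to the median gene (adjusted p = 0.148). None of the 4 tested genes of the far upstream element pathway was called, and their median was −0.24. Over all genes tested under siFUBP1, 396 were called lower and 354 higher, and 302 lower and 498 higher after centring.

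Under U3 ASO the median gene had a log2 change of 0.28, and the same lists differed in how they moved. Their medians were 0.16 for the splice site genes and 0.00166 for the KHSRP partners. For the other KH domain genes the median was 0.30, and for the far upstream element pathway 0.36. Over all genes, 36.5% were called higher and 10.2% lower, and 16.6% higher and 21.1% lower relative to the median gene, and the counts of the lists are to be read against these shares. Of 17 splice site genes 7 were called higher and none lower, with a median of 0.16, and relative to the median gene 1 was higher and 4 lower. SF3A3, a subunit of the U2 snRNP, was higher on both scales (0.49, adjusted p = 1.51e-06, and 0.21, adjusted p = 0.00687). U2AF2, which binds the polypyrimidine tract (0.41, adjusted p = 0.00134), LUC7L (0.42), SNRPC, a U1 snRNP protein (0.30), and TIAL1 (0.35) were higher and not called relative to the median gene. The 4 lower ones, named after their values were seen, were SF3B1 (−0.23), U2SURP (−0.26), LUC7L2 (−0.60) and PUF60 (−0.42). Of 17 KHSRP partners 3 were lower and 2 higher, and 7 lower and 1 higher after centring. The exosome subunits EXOSC8 (−0.40) and EXOSC9 (−0.24) were lower, and EXOSC5 (0.87) and ZFP36L1 (1.02), which binds AU-rich elements, were higher, though EXOSC5 was not called after centring. Called lower only after centring, and named after their values were seen, were HNRNPD (−0.36), EXOSC10 (−0.37), DICER1 (−0.38) and DROSHA (−0.33). HNRNPA1, an RNA-binding protein of pre-mRNA and microRNA processing, fell from 3047 ± 132 to 2145 ± 52.9 RPM (SD, n = 3; log2 change −0.51, adjusted p = 5.91e-08).

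Of 18 other KH domain genes 12 were called higher and 1 lower under U3 ASO, and 2 higher and 3 lower after centring. HDLBP, a protein with many KH domains, was lower on both scales (−0.22, adjusted p = 0.000374, and −0.50, adjusted p = 3.94e-08). PCBP2 (0.27), QKI (0.37), IGF2BP2 (0.32) and ANKRD17 (0.38) were higher and not called after centring. The others called after centring, named after their values were seen, were FMR1 (0.38) and KRR1 (0.41), both higher, and ANKHD1 (−0.33) and HNRNPK (−0.30), both lower. Of 5 tested genes of the far upstream element pathway, GTF2H1, a TFIIH subunit, was higher (1.09, adjusted p = 1.29e-07) and ERCC2, a TFIIH helicase, lower (−0.22, adjusted p = 0.0775), and both kept these calls after centring, when PUF60, a repressor of MYC transcription, was also lower (−0.42, adjusted p = 0.0595).

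In the inputs 9, 9, 14 and 3 genes of the 4 lists were tested by level. Among them 1 gene was called, against 2.86% of all genes called lower, so this count is no result about the lists. The gene was SF1, the branch point-binding protein, which went from 324 ± 4.16 to 154 ± 24.4 RPM (SD, n = 2; log2 change −1.08, adjusted p = 0.0415). This call was lost relative to the median gene (−0.92, adjusted p = 0.107). ZFP36L1, named after its values were seen, was called only relative to it (2.25, adjusted p = 0.0949). Over all genes tested there, 92 were called lower and 25 higher, and 43 lower and 52 higher after centring.

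By inclusion, 2 of the 85 events tested of the splice site genes were called under U3 ASO, against 0.226% of all events. None was called of the 61, 110 and 25 events tested of the other lists (KHSRP partners, other KH domain genes and far upstream element pathway), and none of any list in the other comparisons. An exon of TIA1, which binds U-rich sequence after 5′ splice sites, rose from 0.00776 ± 0.0134 to 0.155 ± 0.076 (SD, n = 3; adjusted p = 0.0468, quasi-binomial test), and an exon of SF1 fell from 0.983 ± 0.0111 to 0.933 ± 0.0249 (adjusted p = 0.0914). They lie at chr2:70225465-70225568 and chr11:64773430-64773505, both on the minus strand.

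The genes whose log2 levels followed those of FUBP1 most closely, over the 12 libraries of the 2 tables that list it and among 6144 genes, were HNRNPA3 (Pearson r = 0.978), SERBP1 (0.972) and F5 (0.971). FUBP3 followed FUBP1 with r = −0.05. For FUBP3 they were MACF1 (0.89), CNEP1R1 (0.881) and AKR1C2 (0.881), over 16 libraries and 2942 genes, and for KHSRP they were PATJ (0.983), PRDX5 (0.981) and FBXO44 (0.976), over 10 libraries and 3139 genes, while FUBP3 followed KHSRP with r = −0.56. Levels were centred on the control libraries of each table, so these values describe shared differences between control and depleted libraries, and libraries also share the depth and composition of their table.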

How the data were processed

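The authors trimmed RNA-seq and RIP-seq reads with Cutadapt, aligned them to hg38 with HISAT2 and counted SE events with rMATS. The deposited junction tables give whole inclusion and skipping read counts, listed by library with no replicate number, so libraries are named by position. The deposited RIP table gives a mean normalized count per gene, taken here as a score, averaged over libraries. The smallest positive means took 6 different values in each condition, whereas the labels name 2 RIP and 2 input libraries a condition. Whether these values were single reads or sums of reads was not checked, so the number of libraries averaged was not settled. Which libraries entered was not given in the sources used here. Genes were counted with HTSeq per the paper's methods and featureCounts per the labels. The fold changes, p-values, FDR and inclusion levels of the authors' own comparisons were not used. Tool versions were not given in the sources used here.

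Events and genes with a mean of at least 10 reads per library were tested in R 4.3.3. Inclusion was tested by a quasi-binomial F test, with the dispersion moderated over events by limma 3.58.1 (prior from events whose reads times inclusion share times skipping share came to at least 5). Levels, and the reads of single events, were tested by limma with a variance trend on log2 RPM, with 0.5 reads added, which understates changes of low genes. Events that share junctions count the same reads. P-values were adjusted by Benjamini-Hochberg over all features tested and called under 0.1. Those of levels and reads rest on variances between these libraries that limma moderated over all genes or events. They reflect the spread of a single gene or event only in part. The paper describes the replicates as biological, and the spread between them may still be partly technical. The dispersion behind the inclusion p-values was nearly the same for most family events of a comparison (5.62 under siFUBP1 and 7.02 under U3 ASO). Inclusion p-values therefore hardly depend on the spread between the libraries of a single event. The tests were tried on simulated data. Intervals and the limits from 0 reads (3 reads) cover counting error only. Annotation came from GENCODE 44, with positions counted from 1. Every family event is reported. From 4 gene lists, called genes were named, up to 5 a list by smallest p, and for each member the 3 genes with the highest correlation. Members, lists and tests were chosen with earlier results of these data known. The tests of single events' reads were added after the data were seen.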

Additional observations from a re-analysis of the deposited data

How the results depend on the processing

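Of 206 inclusion differences of family events recomputed under another test form or read minimum or without 1 library, none was called (lowest adjusted p 0.682), and 22 lost their sign. Most of these events had few reads of their rarer form, so little could be called in them under any setting. The number of family events called stayed 0 throughout. Of 87 levels recomputed, 83 kept their side of the threshold and 83 kept their sign. Centring on the median gene took the U3 ASO change of FUBP3 from 0.28 to −0.00122 and that of KHSRP from 0.11 to −0.18, and without a variance trend FUBP3 stayed at 0.28 but was no longer called (adjusted p = 0.128). The cause was not tested. Leaving out 1 library gave FUBP3 changes between 0.18 and 0.34 in this comparison, and the lowest, without GFP ASO library 2, was not called. Counts over whole tables moved more. By inclusion, 32 events were called under siFUBP1 and 68 under U3 ASO, against 8 and 0 by limma on log2 odds with no trend (1961 under U3 ASO at an unadjusted p under 0.05) and 88 and 254 with one, and without 1 library they were 20 to 30 and 33 to 60. By level, 119 genes were called with no variance trend under siFUBP1 (750 with it) and 0 in the inputs (269 at an unadjusted p under 0.05, 117 called with it). Scaling inclusion reads by length gave 65 genes in the inputs. Without 1 library, 476 to 593 genes were called under siFUBP1 and 6 to 88 in the inputs, the lowest without siFBL input library 2. After the data were seen, the centred U3 ASO levels were also computed without each library, as were the reads of single events. No paired analysis was possible because the positions in the read lists carry no replicate number.

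Depth limits the rare forms most. FUBP1 had 11 to 32 junction reads per siFUBP1 library, and the input table had the fewest reads and 2 libraries a group.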
